A study of Arabidopsis thaliana with 9 samples.

Results

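The WRKY transcription factor family was examined through 44 of its genes in Arabidopsis thaliana inflorescences. The reference annotation names 71 WRKY genes, and the 44 described here are a list of gene identifiers chosen with earlier results of these data known, so their counts are not those of the whole family. Each gene was read from the locus of the deposited table that lists it on its own strand. All 44 had such a locus among the 33871 of the table. For 7 genes a locus on the opposite strand lists the gene too, and that locus was not used.

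Messenger RNA was sequenced from inflorescences of 5-week-old plants grown in soil at 22 °C in long days, in 3 groups of 3 biological replicates. All 9 libraries came from the genotype 35S:AP1-GR ap1,cal, in which the shoot apex of the ap1 cal double mutant keeps forming inflorescence meristems and a constitutive viral promoter drives the floral regulator APETALA1 fused to the glucocorticoid receptor. The groups were untreated tissue, tissue given cycloheximide for 2 h, which blocks translation elongation and served as the mock treatment, and tissue given dexamethasone plus cycloheximide for 2 h, where dexamethasone activates the fusion protein. The series asks which genes AP1 regulates early in flower development, and the WRKY genes were read in the same comparisons. The fusion is present in every group, so AP1-GR activation and other effects of dexamethasone cannot be told apart, and untreated tissue has no stated mock handling, so handling cannot be told apart from cycloheximide.

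WRKY proteins are plant transcription factors named for the conserved amino acids of their DNA-binding domain, which reads a short promoter element called the W-box. Group I proteins carry a pair of these domains, groups II and III a single one, and group II is split into IIa to IIe by sequence. Many are known from leaves and seedlings as regulators of immunity, salicylic acid and jasmonic acid signalling, senescence and nutrient stress, several are targets of MAP kinases or bind VQ-motif partner proteins, and WRKY promoters themselves often carry W-boxes.

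The promoters of the 4 genes with the largest log2 rises after cycloheximide, on the scale of log2(FPKM + 1), are shown here because these genes rose together and hold different numbers of W-boxes. Each is the 250 bases before the annotated transcription start, read 5′ to 3′ on the gene's strand from the RefSeq TAIR10.1 assembly, with W-boxes (TTGACC or TTGACT, either strand) in capitals. They lie at chr2:19044956-19045205 on the minus strand for WRKY46, chr1:30383311-30383560 on the plus strand for WRKY40, chr2:16107985-16108234 on the plus strand for WRKY33 and chr5:8154711-8154960 on the minus strand for WRKY30.
WRKY46: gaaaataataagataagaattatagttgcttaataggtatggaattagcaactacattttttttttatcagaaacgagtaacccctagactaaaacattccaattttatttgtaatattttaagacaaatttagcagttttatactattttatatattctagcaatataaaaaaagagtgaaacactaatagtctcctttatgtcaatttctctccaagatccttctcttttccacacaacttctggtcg
WRKY40: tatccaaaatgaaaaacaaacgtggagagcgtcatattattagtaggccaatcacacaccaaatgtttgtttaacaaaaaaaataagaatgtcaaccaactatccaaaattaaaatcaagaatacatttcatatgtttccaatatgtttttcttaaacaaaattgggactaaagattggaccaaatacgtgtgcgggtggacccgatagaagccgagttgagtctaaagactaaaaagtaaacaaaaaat
WRKY33: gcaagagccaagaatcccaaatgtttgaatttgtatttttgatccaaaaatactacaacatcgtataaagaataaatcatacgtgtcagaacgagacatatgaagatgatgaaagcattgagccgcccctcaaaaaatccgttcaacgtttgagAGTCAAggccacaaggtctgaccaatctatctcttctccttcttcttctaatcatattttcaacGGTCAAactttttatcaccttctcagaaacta
WRKY30: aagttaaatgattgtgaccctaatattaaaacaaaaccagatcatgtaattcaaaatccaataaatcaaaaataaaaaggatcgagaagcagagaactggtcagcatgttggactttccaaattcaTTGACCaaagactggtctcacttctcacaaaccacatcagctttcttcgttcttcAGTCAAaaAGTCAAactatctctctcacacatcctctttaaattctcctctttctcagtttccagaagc

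WRKY30 held 3 W-boxes, whose first bases lie at -124, -69 and -61 from the start, and WRKY33 held 2, at -96 and -32. WRKY46 and WRKY40 held none in this window, and each held 1 copy of the shorter core TTGAC, which every W-box contains. Over the listed genes, 16 of 44 promoters (36.4%) held at least 1 W-box, against 28.4% of the 27443 promoters of protein-coding genes, and 9 (20.5%) held at least 2, against 6.18%. Among the 33 members called higher with cycloheximide 15 (45.5%) held a W-box, and the core was present in 24 of 44 members (54.5%) against 44.9% of all promoters. The CArG box bound by MADS-domain proteins such as AP1 was searched only as CCWWWWWWGG, where W is A or T. It was found in 0 of the 44 windows, against 2.52% of all promoters, a count not set apart from that share. Other forms of the site, or sites farther away, were not searched. These are matches of letters, counted without a test.

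In untreated inflorescences the 44 genes spanned a wide range of levels, given here in FPKM, that is, fragment counts normalized to transcript length and to the size of the library. WRKY18, a group IIa gene, stood highest among them with a mean of 109.6 ± 44.2 FPKM (SD, n = 3), followed by WRKY70, a group III gene, with 103 ± 67.4, and by the group IId genes WRKY11 with 90.8 ± 3.30 and WRKY21 with 66.6 ± 3.59. The libraries of WRKY18 and WRKY70 overlapped those of WRKY11, and those of WRKY70 overlapped WRKY21 too, so only the step from WRKY11 to WRKY21 in this order was larger than the spread. Of the WRKY genes outside the 44, WRKY14 stood higher, at 1123, 1386 and 348 FPKM, and WRKY35 overlapped WRKY11, at 74.1, 149.7 and 65.6. At the other end, WRKY41 was listed at 0 in 2 of 3 untreated libraries and WRKY30 did not pass 0.124 FPKM. The 42 members with a value of their own in every library summed to 741 to 994 FPKM per untreated library, which was 0.0558% to 0.0743% of the FPKM of all loci of at least 300 bp.

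With cycloheximide the members' levels were of another order, and a few genes made up most of the sum. The same 42 members summed to 11045 to 16484 FPKM in cycloheximide libraries, or 0.780% to 1.01% of all loci of at least 300 bp, and to 16532 to 19202 with dexamethasone plus cycloheximide, or 1.08% to 1.22%. WRKY18, WRKY33, WRKY40, WRKY46 and WRKY70 together held 25.7% to 43.8% of the members' sum in untreated libraries and 85.8% to 88.4% in cycloheximide libraries. Among 18710 tested loci of at least 300 bp ranked by mean FPKM, WRKY46 went from place 7303 in untreated tissue to 46 with cycloheximide, WRKY40 from 12066 to 95 and WRKY18 from 1457 to 41.

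**Figure D1:**
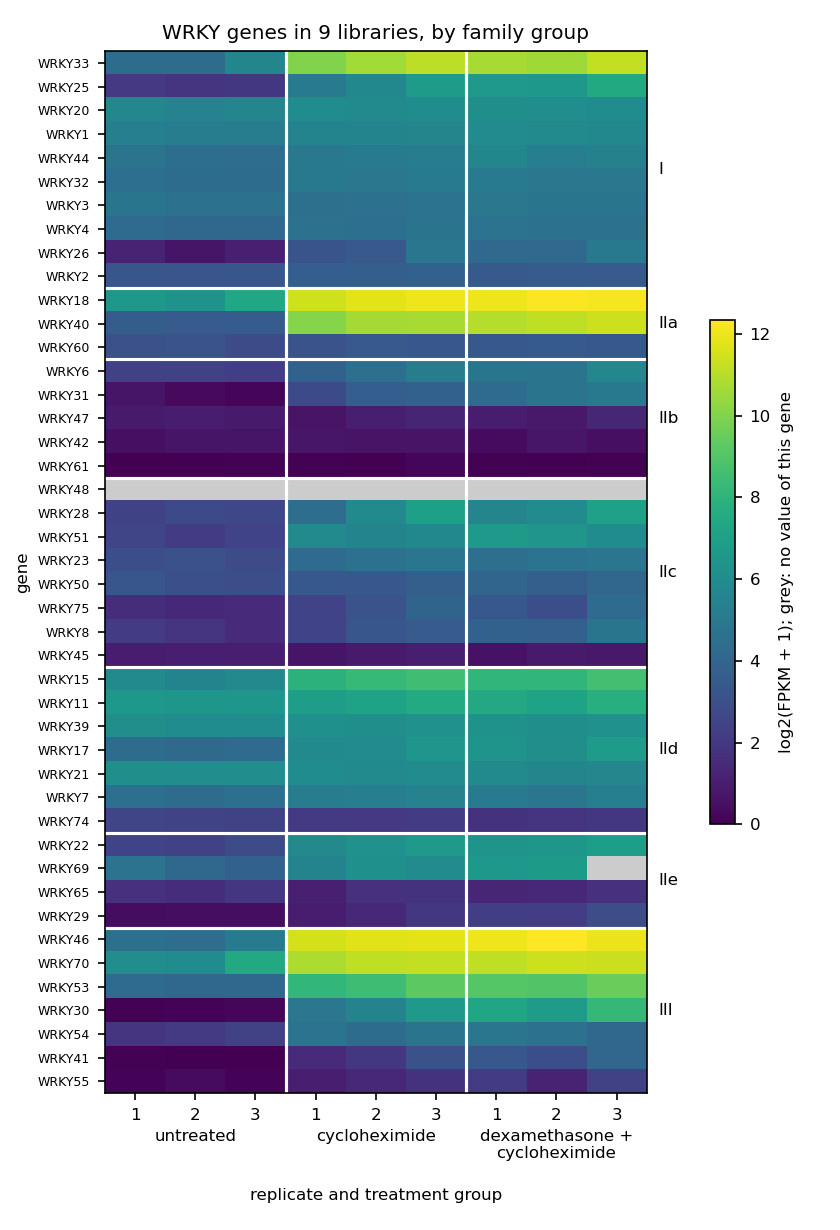
Levels of the 44 WRKY genes as log2(FPKM + 1), colour, in the 9 libraries, columns by replicate number within treatment group, with genes in rows by family group (I to III, at the right) and then by cycloheximide mean. The bright rows of WRKY18, WRKY33, WRKY40, WRKY46 and WRKY70 appear with cycloheximide, and grey marks WRKY48, whose locus spans other genes, and the failed value of WRKY69.

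Cycloheximide against untreated tissue was tested with limma on log2(FPKM + 1) over 19569 loci with a mean FPKM of at least 1 and a valid quantification in every library, and a call is a Benjamini-Hochberg adjusted p under 0.05. Of the 38 WRKY members tested, 33 were called higher, where 26.5% of all tested loci were, and 1 was called lower, where 28.2% of all were. The median log2 change was 1.66 over the 38 members and -0.05 over all loci, and 17 members had a log2 change of at least 2, against 6.35% of all loci. A gene that is nearly silent in untreated tissue could pass the minimum only by being high after treatment, which holds for the 5 members WRKY29, WRKY30, WRKY31, WRKY41 and WRKY55, with untreated means below 1 FPKM. Among the 33 members with an untreated mean of at least 1 FPKM, 28 were called higher, against 23.6% of such loci, and 1 lower, against 29.8%. Without any minimum, 31 of 42 members were called higher, against 15.3% of 33794 loci. In bulk tissue, more RNA per cell and more cells of a type cannot be told apart.

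Group IIa holds WRKY18, WRKY40 and WRKY60, proteins known to bind one another and to modulate defence and abscisic acid responses. WRKY40 (AT1G80840, chromosome 1, 30383691 to 30385499) had 11.6, 10.7 and 11.2 FPKM in the untreated libraries, in order of replicate number, against 1094, 1615 and 1679.9 after cycloheximide and 2008, 2318 and 2701 after both compounds. Its untreated libraries lay close together and far below all treated ones. The cycloheximide mean was 131 times the untreated mean, a log2 change of 6.89 ± 0.18 (SE) with an adjusted p of 1.40e-07.

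WRKY18 (AT4G31800, chromosome 4, 15383201 to 15385029) had 93.0, 76.1 and 159.8 FPKM untreated, 2770.0, 3673 and 4228 with cycloheximide and 4155, 4839 and 4621 with both. Untreated replicate 3 was the highest of its group, and still far under every treated library. The log2 change with cycloheximide was 5.06 ± 0.29 (adjusted p = 3.78e-06), a 32.4-fold difference of group means. WRKY60 had 7.31, 7.80 and 6.11 FPKM untreated and 7.96, 9.75 and 9.18 with cycloheximide. These groups are close without overlapping, and the log2 change of 0.30 ± 0.10 (adjusted p = 0.0329) was called in 10 of 18 alternative analyses. Its call was lost without untreated replicate 1 or 3, and without cycloheximide replicate 2 or 3, with adjusted p from 0.0167 to 0.660 over the alternatives.

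All 7 members of group III were tested and all were called higher, against 26.5% of all loci, with a median log2 change of 4.43. Of these, WRKY30, WRKY41 and WRKY55 passed the minimum only through treated libraries. WRKY46 (AT2G46400, chromosome 2, 19043414 to 19044826), which acts with WRKY54 and WRKY70 in brassinosteroid-regulated growth, had 22.8, 20.0 and 33.6 FPKM untreated, 2969.6, 3492 and 3689 with cycloheximide and 4215, 5171 and 4006 with both. With a constant of 1 added before the logarithm it had the largest log2 change of the members, 7.03 ± 0.21 (adjusted p = 1.98e-07), while with 0.1 that of WRKY30 was larger (8.07 against 7.08). WRKY46 had a cycloheximide mean 133 times the untreated one. The untreated libraries lay far below every treated one.

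WRKY70 (AT3G56400, chromosome 3, 20908928 to 20910481), placed between salicylic acid and jasmonic acid signalling, had 64.5, 63.5 and 181 FPKM untreated, 1781, 2255 and 2341 with cycloheximide and 2292, 2729 and 2576 with both. Its untreated replicate 3 stood well above the other two, as it did for WRKY18, WRKY33 and WRKY46. The log2 change was 4.53 ± 0.37 (adjusted p = 2.97e-05) and came to 5.02 without that library.

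WRKY53 (AT4G23810, chromosome 4, 12392370 to 12393982), a regulator of leaf senescence, had 18.7, 16.5 and 16.5 FPKM untreated, 283, 358 and 589.9 with cycloheximide and 542, 504 and 729 with both, and the groups untreated and cycloheximide did not overlap. The log2 change was 4.43 ± 0.26 (adjusted p = 4.40e-06). A locus on the opposite strand that overlaps it held 126.6 to 254 FPKM in the 9 libraries, and whether the counting used strand is not settled, so the low untreated level of WRKY53 is less certain than its treated one. WRKY1, WRKY3, WRKY33, WRKY40, WRKY50 and WRKY69 overlap an opposite-strand locus too and carry the same limit. That of WRKY40 held 26.0 to 34.9 FPKM, above the untreated level of WRKY40.

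WRKY30 (AT5G24110, chromosome 5, 8153115 to 8154709), known to respond to reactive oxygen, had 0.0502, 0.102 and 0.124 FPKM untreated, 28.5, 45.5 and 101 with cycloheximide and 151, 111 and 292 with both. It was close to absent in untreated libraries and clearly present in all others. The estimated log2 change, 5.57 ± 0.47 (adjusted p = 3.14e-05), depends on the constant added before the logarithm, rising to 8.07 with 0.1 in place of 1. Among 18710 loci it moved from place 18455 to 3343, and to 959 with both compounds.

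WRKY54, which acts with WRKY70 in senescence, had means of 3.42 ± 0.720 FPKM untreated and 23.3 ± 3.18 with cycloheximide, a log2 change of 2.46 ± 0.20. WRKY41, linked to seed dormancy, changed by 2.17 ± 0.40 and WRKY55 by 1.19 ± 0.33. Both were near 0 in untreated libraries, so their estimates depend on the constant too, and with 0.1 they were 5.01 and 2.80, the first above the 4.54 of WRKY70 with that constant. WRKY55 is a low gene, at 1.06, 1.58 and 2.48 FPKM with cycloheximide, and its call was lost without cycloheximide replicate 3 and with quantile normalization.

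**Figure D2:**
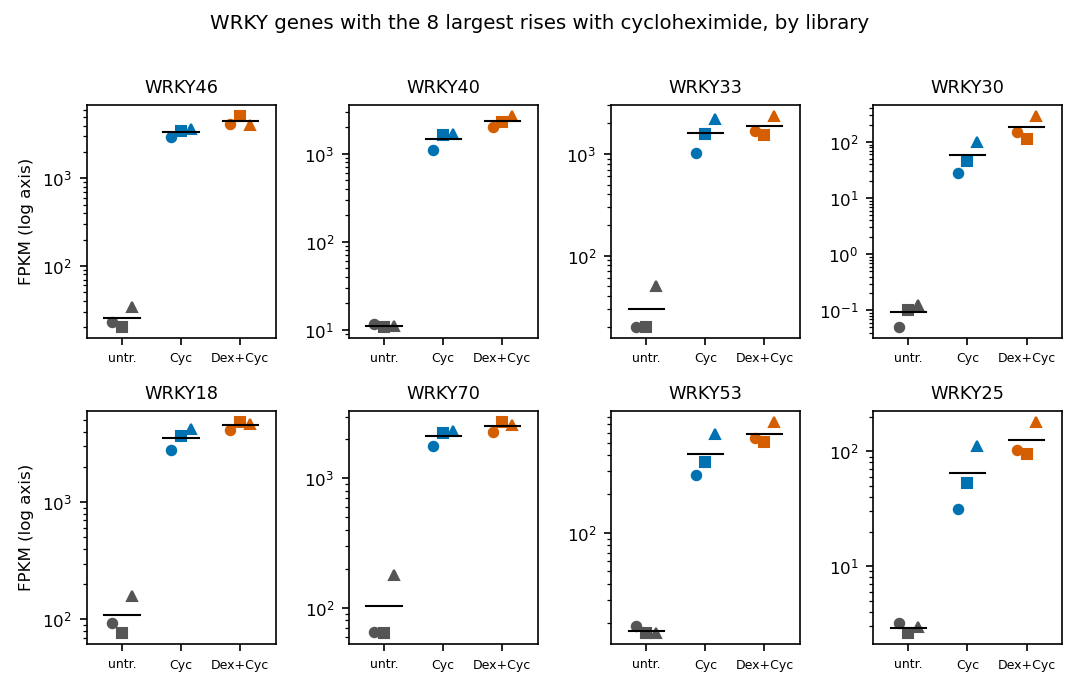
FPKM on a log axis for the 8 WRKY genes with the largest log2 rise with cycloheximide on the scale of log2(FPKM + 1), in untreated (untr.), cycloheximide (Cyc) and dexamethasone plus cycloheximide (Dex+Cyc) libraries. Circles, squares and triangles are replicates 1, 2 and 3 and bars are group means. Untreated libraries lie below all treated ones in each panel.

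In group I, 9 of 10 members were called higher, against 26.5% of all loci, but most by little, with a median log2 change of 0.49. WRKY33 (AT2G38470, chromosome 2, 16108361 to 16110766), required for synthesis of the phytoalexin camalexin and phosphorylated by MPK3 and MPK6, had 19.8, 19.8 and 49.8 FPKM untreated, 1025, 1565 and 2199 with cycloheximide and 1667, 1549.8 and 2372 with both. Even untreated replicate 3, its highest untreated library, lay far below the lowest treated one. Its log2 change came to 5.77 ± 0.41 (adjusted p = 1.20e-05), or 53.6-fold between group means.

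WRKY25 (AT2G30250, chromosome 2, 12903236 to 12905198), which acts with WRKY26 and WRKY33 in heat tolerance, had 3.16, 2.60 and 2.94 FPKM untreated, 31.5, 53.0 and 111 with cycloheximide and 103, 93.9 and 180.2 with both. The cycloheximide libraries were spread widely, and each was above the untreated ones. WRKY25 changed by 3.90 ± 0.42 on the log2 scale (adjusted p = 0.00013), and WRKY26 changed by 2.83 ± 0.42, from a mean of 1.02 ± 0.390 to 15.2 ± 10.7 FPKM.

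WRKY44 (AT2G37260, chromosome 2, 15644840 to 15647065), also called TTG2 and known for trichome and seed coat development, had 25.7, 21.3 and 20.1 FPKM untreated, 29.9, 32.1 and 36.4 with cycloheximide and 49.8, 38.2 and 41.4 with both. The groups were ordered without overlap. The log2 change with cycloheximide was 0.53 ± 0.13 (adjusted p = 0.00845).

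The other group I genes stayed within narrow bounds. WRKY1, WRKY2, WRKY4, WRKY20 and WRKY32 were called higher with log2 changes between 0.32 and 0.58. WRKY2, known for polarity of the zygote, went from 8.84 ± 0.286 to 12.4 ± 0.684 FPKM. WRKY3, which like WRKY4 acts in resistance to necrotrophic fungi, was not called, at 26.6, 24.2 and 22.9 FPKM untreated and 22.4, 23.3 and 24.9 with cycloheximide (log2 change -0.06 ± 0.08, adjusted p = 0.54). The call of WRKY20 was lost without untreated replicate 2 (adjusted p = 0.0649).

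Group IIc had 8 members, and the 6 tested were called higher, against 26.5% of all loci. WRKY51, which with WRKY50 acts in the suppression of jasmonic acid responses, had 4.92, 3.59 and 4.54 FPKM untreated and 58.2, 45.6 and 52.9 with cycloheximide, a log2 change of 3.32 ± 0.18 (adjusted p = 3.18e-06). WRKY50 itself went from 7.61 ± 1.20 to 10.4 ± 1.81 FPKM, and its change of 0.41 ± 0.15 (adjusted p = 0.0455) was called in 8 of 18 alternatives. Leaving out untreated replicate 2 or 3, cycloheximide replicate 2 or 3, or dexamethasone + cycloheximide replicate 1 or 3 each removed it.

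WRKY28, an activator of salicylic acid synthesis, had 4.37, 5.73 and 5.36 FPKM untreated and 20.3, 59.1 and 125 with cycloheximide. None of the 33 risen members varied more among the cycloheximide libraries, with a highest value 6.13 times the lowest, and the groups still did not overlap. On the log2 scale it changed by 3.15 ± 0.61 (adjusted p = 0.0028). WRKY23, an auxin-responsive gene, changed by 1.63 ± 0.14, WRKY75, known from phosphate starvation and senescence, by 1.69 ± 0.42, and WRKY8, known from salt and virus responses, by 1.28 ± 0.35. WRKY8 lost its call without untreated replicate 3 or cycloheximide replicate 3, with adjusted p up to 0.0555.

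In group IIb, 2 of 5 members were tested and both were called higher, against 26.5% of all loci. WRKY31 passed the minimum only through treated libraries, and WRKY42, WRKY47 and WRKY61 stayed under it, so the count says little. WRKY6, a regulator of senescence and phosphate transport, had 4.23, 4.37 and 3.88 FPKM untreated and 13.1, 21.9 and 37.0 with cycloheximide (log2 change 2.16 ± 0.37, adjusted p = 0.00148). WRKY31 was near 0 in untreated libraries and at 5.90, 11.9 and 13.2 FPKM with cycloheximide (log2 change 3.03 ± 0.29, adjusted p = 6.57e-05). In group IIe, WRKY22 and WRKY29, both placed downstream of flagellin perception, were called higher, 2 of 3 tested, against 26.5% of all loci. WRKY22 had 4.66, 4.34 and 5.96 FPKM untreated and 54.9, 74.6 and 99.1 with cycloheximide, a log2 change of 3.66 ± 0.22 (adjusted p = 5.93e-06), while WRKY29 reached only 0.901, 1.67 and 3.02 FPKM (log2 change 1.01 ± 0.28). The call of WRKY29 was lost with quantile normalization (limma, adjusted p = 0.265). WRKY65 was low throughout and overlapped between groups (log2 change -0.23 ± 0.22, adjusted p = 0.405).

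Group IId, whose proteins bind calmodulin, was the only group with calls in both directions. Of its 7 members 4 were called higher, against 26.5% of all loci, 1 lower, against 28.2%, and 2 were not called. WRKY15, linked to reactive oxygen and salt stress, had 56.1, 46.6 and 54.6 FPKM untreated and 246, 302 and 375 with cycloheximide (log2 change 2.51 ± 0.19, adjusted p = 1.96e-05). WRKY11 and WRKY17 are known as a pair of negative regulators of basal resistance. WRKY17 changed by 1.77 ± 0.20.

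WRKY11 (AT4G31550, chromosome 4, 15289947 to 15291539) had 93.6, 91.7 and 87.2 FPKM untreated, 121, 137 and 188 with cycloheximide and 173, 143 and 222 with both. The untreated libraries were uniform and all lower than the treated ones. The log2 change of 0.68 ± 0.19 (adjusted p = 0.0179) lost its call without untreated replicate 3 or cycloheximide replicate 3, with adjusted p up to 0.0526.

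WRKY21 (AT2G30590, chromosome 2, 13033476 to 13035593) had 70.7, 65.0 and 64.1 FPKM untreated, 63.3, 58.8 and 60.3 with cycloheximide and 58.0, 49.6 and 51.0 with both, so the groups stepped down slightly without overlap. Its log2 change with cycloheximide was -0.13 ± 0.08 (adjusted p = 0.209). WRKY74 (AT5G28650, chromosome 5, 10677716 to 10679204) fell, with 5.04, 4.72 and 4.41 FPKM untreated, 3.28, 3.12 and 3.49 with cycloheximide and 2.53, 2.64 and 2.96 with both. Its log2 change of -0.41 ± 0.09 (adjusted p = 0.00467) was the lone call in that direction. WRKY7 was called higher (0.87 ± 0.13), and WRKY39 (0.16 ± 0.07, adjusted p = 0.105) was not.

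**Figure D3:**
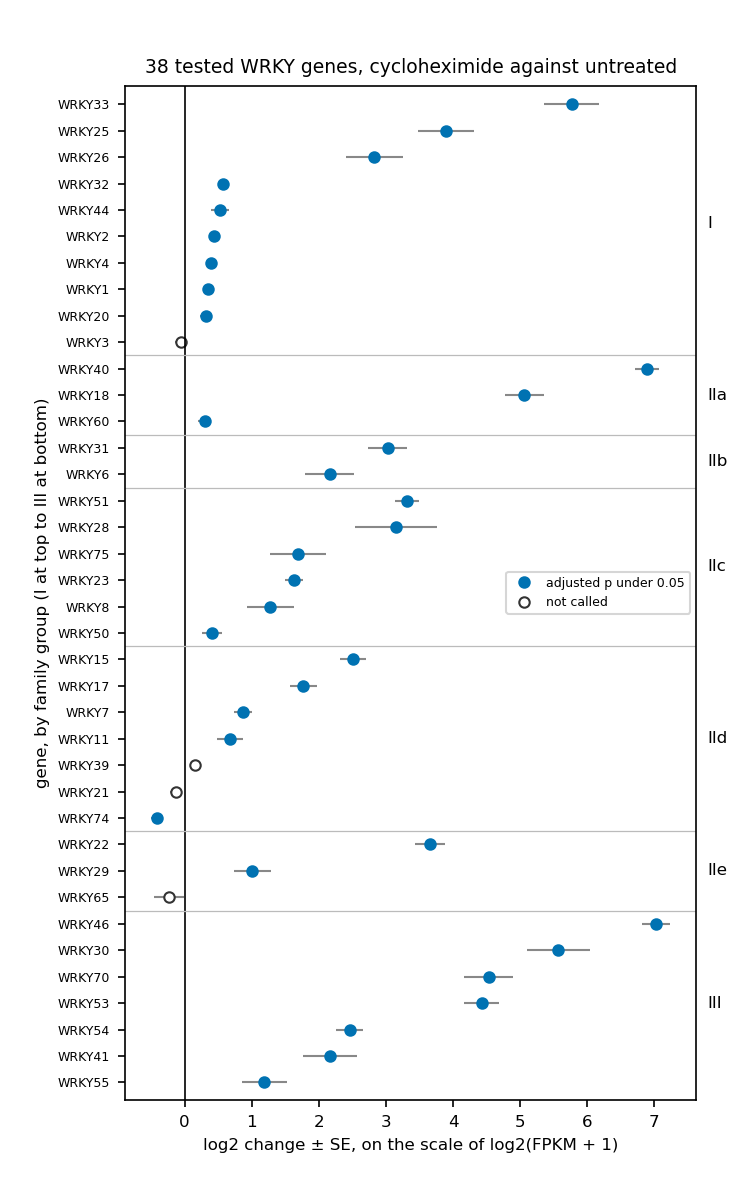
Log2 change with cycloheximide against untreated tissue, with SE bars from limma, for the 38 tested WRKY genes by family group. Filled points have an adjusted p under 0.05. WRKY46, WRKY40 and WRKY33 lie farthest to the right, while most of group I and group IId lie within 1 log2 unit of 0.

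Among the cycloheximide libraries, replicate 3 had the highest value for 31 of the 33 members called higher (93.9%), and for 64.3% of the other 5160 loci called higher. Replicate 1 had the lowest for 26 of them (78.8%), against 69.4%. The highest value was a median of 1.54 times the lowest over these members and 1.29 times over the other loci. Replicate 3 was also the highest in 21 (63.6%) of the same members with both compounds, against 49.6% of the other loci. The part of this difference between libraries in the results was not tested.

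Genes that are known to act with WRKY proteins were read in the same fit. Of 13 MAP kinase module and VQ partner genes 12 were tested, and 10 were called higher with cycloheximide and 0 lower, against 26.5% and 28.2% of all loci, with a median log2 change of 1.78. MPK3, the kinase that phosphorylates WRKY33, had 99.5, 91.9 and 227 FPKM untreated and 5009, 6137 and 7479 with cycloheximide (log2 change 5.57 ± 0.34, adjusted p = 6.06e-06), and its untreated replicate 3 was again the highest of the group. The VQ proteins SIB1 and SIB2, which bind WRKY33, changed by 4.68 ± 0.25 and 3.61 ± 0.18, and the kinase kinase MKK4 by 2.57 ± 0.19.

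Of 15 salicylic acid and camalexin genes 10 were tested and 9 were called higher, against 26.5% of all loci, with a median log2 change of 3.16. Of these 9, EDS5 had an untreated mean of 0.446 FPKM and passed the minimum only through treated libraries. SARD1 and CBP60G, activators of salicylic acid synthesis, changed by 7.64 ± 0.30 and 7.00 ± 0.29, and the immune regulators PAD4 and EDS1 by 4.58 ± 0.12 and 3.94 ± 0.15. ICS1, the salicylic acid synthesis enzyme, had 3.96, 3.84 and 5.28 FPKM untreated and 3.05, 4.27 and 5.28 with cycloheximide and was not called (log2 change -0.06 ± 0.23, adjusted p = 0.852). PR1, PR2, FRK1 and CYP71A13, widely used defence outputs, stayed under the mean of 1 FPKM and were not tested. The count for this list therefore leaves out genes that stayed low.

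The network of WRKY44 had calls in both directions. Of its 8 genes 5 were tested. TTG1 was called higher (0.35 ± 0.10), 1 of 5, against 26.5% of all loci. EGL3 (-0.35 ± 0.10) and GL1 (-0.62 ± 0.19) were called lower, 2 of 5, against 28.2%. These calls are marginal: those of TTG1, EGL3 and GL1 were each lost without untreated replicate 1 or cycloheximide replicate 2, and that of TTG1 also without cycloheximide replicate 3. Of 7 senescence and phosphate genes 3 were tested and all were called higher, against 26.5% of all loci, SAG101 by 2.61 ± 0.24, SPX1 by 2.02 ± 0.21 and UPL5 by 0.32 ± 0.09. The call of UPL5 was lost without untreated replicate 1 or 2 or cycloheximide replicate 3. SAG12, the marker of senescing leaf, was listed at 0 in all 9 libraries.

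Dexamethasone plus cycloheximide was then compared with cycloheximide alone, the contrast the series uses for AP1 targets. Of the 38 WRKY members 0 were called by limma at an adjusted p under 0.05, where 3.69% of all tested loci were called, 1.91% higher and 1.78% lower. At an unadjusted p under 0.05 there were 15 members, against 23.1% of all loci. The median log2 change was 0.34 over the members and 0.01 over all loci, with 32 of 38 above 0, against 51.2% of all loci. When 1 library was left out, the members' median ran from 0.17, without cycloheximide replicate 1, to 0.48, without cycloheximide replicate 3. Members above 0 numbered 27 and 34 in these fits, and those at an unadjusted p under 0.05 numbered 8 and 18. The libraries with both compounds were all above those with cycloheximide alone for 11 members and all below for 3, against 14.4% and 11.0% of all loci. The missing calls do not show that the levels were alike, since several estimates were large beside their errors.

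WRKY31 (AT4G22070, chromosome 4, 11691171 to 11694507) had the smallest p. It had 5.90, 11.9 and 13.2 FPKM with cycloheximide alone and 19.1, 25.9 and 30.8 with both compounds, so the groups did not overlap. The log2 change was 1.25 ± 0.29 (SE) with an adjusted p of 0.0546. WRKY29 (AT4G23550, chromosome 4, 12291820 to 12293096) had 0.901, 1.67 and 3.02 FPKM with cycloheximide alone and 3.87, 3.78 and 6.50 with both, again without overlap, and a log2 change of 1.03 ± 0.28 (adjusted p = 0.0778).

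WRKY40 had 1094, 1615 and 1679.9 FPKM with cycloheximide alone against 2008, 2318 and 2701 with both, and its lowest library with both compounds was above its highest with cycloheximide alone. Its log2 change was 0.69 ± 0.18 (adjusted p = 0.0738). WRKY1 (AT2G04880, chromosome 2, 1717888 to 1720526) had 38.8, 34.7 and 35.3 FPKM untreated, 46.0, 45.8 and 47.7 with cycloheximide and 60.4, 57.5 and 53.2 with both. The groups were tight and stepped upward without overlap, and the last step was 0.29 ± 0.07 on the log2 scale (adjusted p = 0.0692).

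Same-numbered libraries of these groups deviated together, so a fit with the replicate number as a block was set beside this one. No label says that a number marks a shared batch, so the block rests on these same data. The block over 9 libraries also covers untreated ones, whose numbers were not taken to pair with treated libraries. With the block over 9 libraries WRKY29 (adjusted p = 0.0478) and WRKY30 (adjusted p = 0.0458) were called higher, where 3.24% of all loci were. With the block over the 6 libraries compared 4 members were called higher, WRKY29 (0.0385), WRKY30 (0.0390), WRKY31 (0.0299) and WRKY41 (0.0469, each an adjusted p), where 5.23% of all loci were. The estimates are the same with and without the block by construction, since every group holds each replicate number. WRKY30 had the largest, 1.72 ± 0.47, from 28.5, 45.5 and 101 FPKM with cycloheximide alone to 151, 111 and 292 with both, and WRKY41 changed by 1.28 ± 0.40, from 1.84, 3.03 and 7.25 to 9.29, 6.70 and 16.0 FPKM. In each replicate number both genes were higher with both compounds, while the groups overlapped for WRKY41.

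Quantile normalization called WRKY31 and WRKY40 higher, where 2.14% of all loci were, and leaving out loci under 300 bp called WRKY31, where 2.68% were. Cycloheximide replicate 3, the library with the highest values of most risen members, bore on this comparison. Without it 6 members were called higher, WRKY25, WRKY29, WRKY30, WRKY31, WRKY41 and WRKY53, where 3.95% of all loci were. Without any other single library 0 were called. The estimate of WRKY25 was 1.06 ± 0.42 with all libraries and 1.53 without that one, and that of WRKY53 was 0.58 ± 0.26 and 0.87.

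Beside WRKY40, given above, the other defence-linked genes with the highest levels were not called in this contrast either. WRKY46 changed by 0.40 ± 0.21, WRKY18 by 0.37 ± 0.29, WRKY70 by 0.26 ± 0.37 and WRKY33 by 0.27 ± 0.41, with adjusted p from 0.297 to 0.741. Of these only WRKY46 had groups that did not overlap. WRKY33 turned slightly negative, to -0.02, without cycloheximide replicate 1. WRKY44 had a log2 change of 0.38 ± 0.13 (adjusted p = 0.129) with groups that did not overlap, and the negative estimates were those of WRKY2, WRKY7, WRKY21, WRKY54, WRKY65 and WRKY74, none beyond -0.24.

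**Figure D4:**
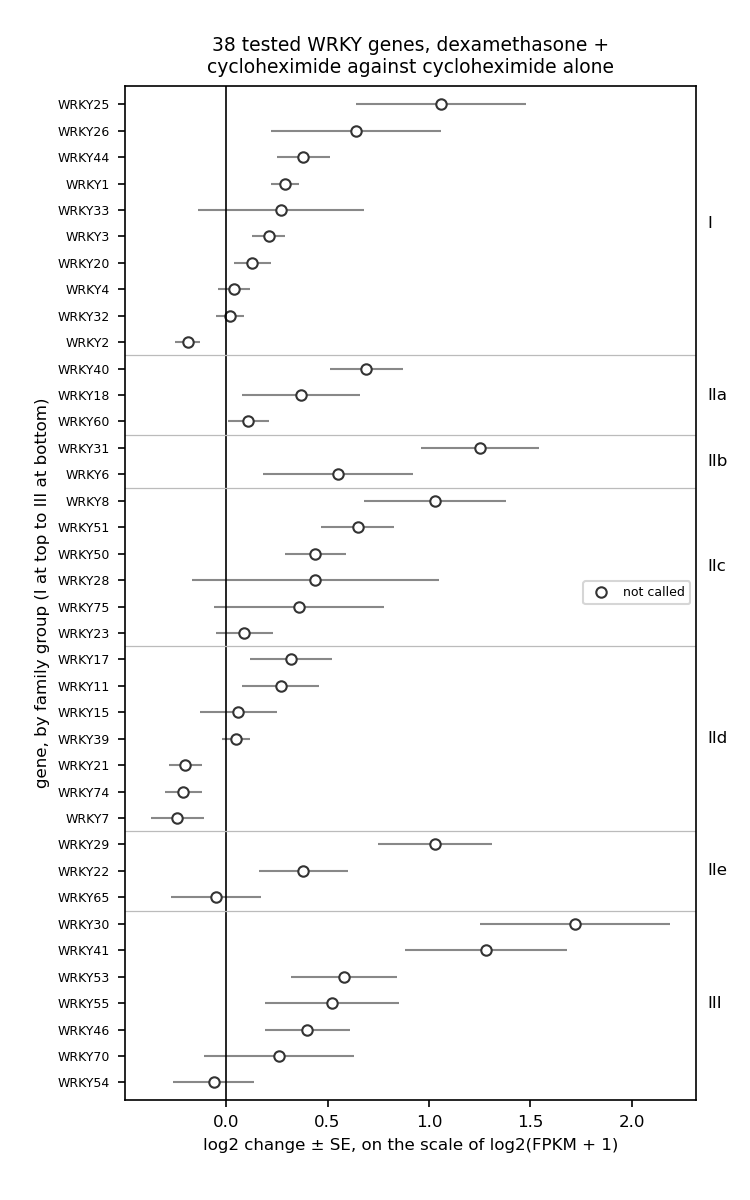
Log2 change with dexamethasone plus cycloheximide against cycloheximide alone, with SE bars from limma, for the 38 tested WRKY genes by family group. All points are open because 0 genes passed an adjusted p of 0.05, and the estimates run from -0.24 for WRKY7 to 1.72 for WRKY30.

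**Figure D5:**
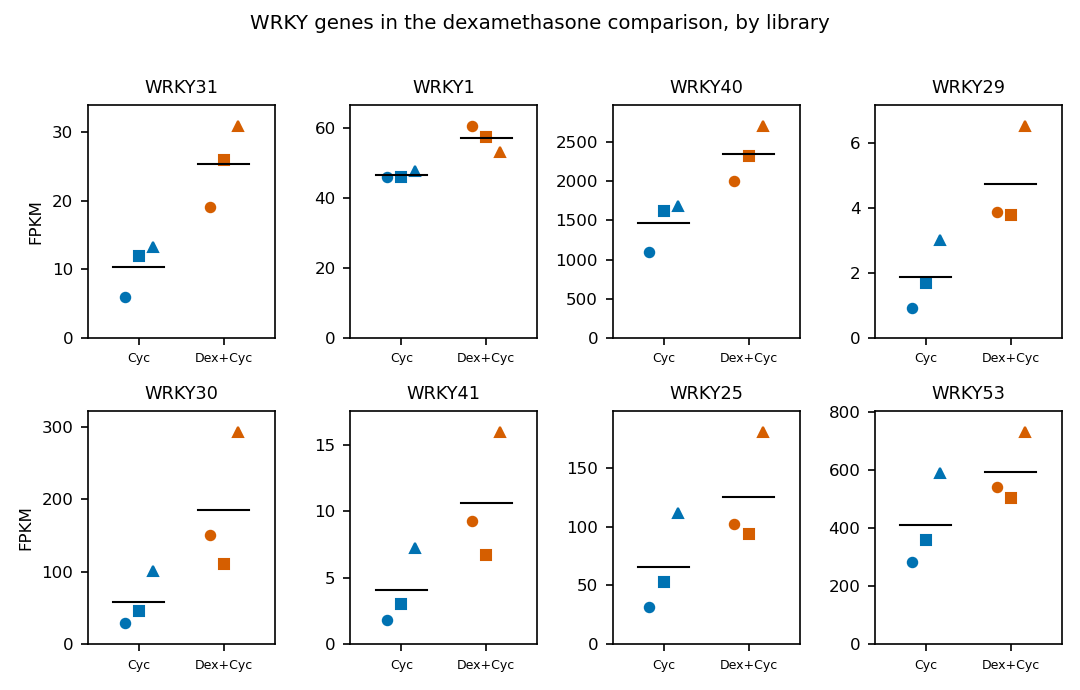
FPKM of 8 WRKY genes in cycloheximide (Cyc) and dexamethasone plus cycloheximide (Dex+Cyc) libraries, on axes that start at 0. The genes are the 4 with the smallest p (top row) and 4 called in a blocked or left-out analysis (bottom row). Circles, squares and triangles are replicates 1, 2 and 3 and bars are group means, and cycloheximide replicate 3 reaches into the range of the other group for WRKY41, WRKY25 and WRKY53.

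The partner genes were read in the same contrast. There 3.69% of all tested loci were called, 1.91% higher and 1.78% lower, and 23.1% had an unadjusted p under 0.05. At those shares lists this short would hold few calls or none. Among the MAP kinase and VQ genes 0 of 12 were called by limma, with 4 at an unadjusted p under 0.05, and the smallest p belonged to MKS1, a VQ protein that binds WRKY33 (log2 change 0.80 ± 0.23, adjusted p = 0.0886), and MKK1 (0.33 ± 0.10, adjusted p = 0.108). Both were called with the block over 6 libraries, and MKS1 also without cycloheximide replicate 3. PAD4 was called higher among the 10 salicylic acid and camalexin genes, with 160.3, 189 and 223 FPKM with cycloheximide alone and 283, 287 and 265 with both (log2 change 0.55 ± 0.12, adjusted p = 0.0493). That call held in 2 of 18 alternatives, and of the analyses that left out 1 library only the one without cycloheximide replicate 3 kept it. In the WRKY44 network 0 of 5 were called, with 1 at an unadjusted p under 0.05, and TT8 (0.76 ± 0.24, adjusted p = 0.112) and TTG1 (-0.21 ± 0.10, adjusted p = 0.254) had the smallest p. In the senescence and phosphate list 0 of 3 were called and 0 reached an unadjusted p under 0.05, with SAG101 at 0.32 ± 0.24 and SPX1 at 0.18 ± 0.21.

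Dexamethasone plus cycloheximide against untreated tissue shares its libraries with both comparisons above, so its values stand beside them and add no independent evidence. Here 34 of 38 members were called higher, against 30.8% of all loci, and 2 lower, WRKY21 and WRKY74, against 33.1%, with a median log2 change of 2.07. WRKY40 stood at 7.58 ± 0.18 in this contrast, beside 6.89 ± 0.18 with cycloheximide alone, and WRKY46 at 7.42 ± 0.21 beside 7.03 ± 0.21. WRKY30 stood at 7.29 ± 0.47 beside 5.57 ± 0.47, and WRKY31 at 4.29 ± 0.29 beside 3.03 ± 0.29. WRKY39 was called here (0.21 ± 0.07), and this call was lost without untreated replicate 2 or 3 or dexamethasone + cycloheximide replicate 1 or 3. WRKY3 and WRKY65 remained uncalled.

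The 6 members without a test were of different kinds. WRKY42, WRKY45, WRKY47 and WRKY61 had a mean under 1 FPKM. WRKY61 did not pass 0.130 FPKM in any library, and WRKY47, the highest of the 4, did not pass 1.54. WRKY42 and WRKY45 are known from phosphate transport in roots. WRKY69 had 24.9, 16.9 and 13.0 FPKM untreated, 45.6, 71.3 and 60.9 with cycloheximide, and 93.1 and 105.4 in replicates 1 and 2 with both compounds, and its quantification failed in the last library. Its untreated values lay below all others, without a test. WRKY48, a negative regulator of basal resistance, shares its locus with 6 other genes on the same strand, so no value is given for it.

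Markers of cell types were read beside these results. The summed FPKM of 6 inflorescence meristem markers was 415 to 469.7 in untreated libraries, 299 to 389 with cycloheximide and 173 to 219 with both compounds, and that of 5 floral organ markers was 45.5 to 52.9, 25.8 to 54.98 and 17.3 to 22.2. Both sums were lowest in the group with both compounds. The meristem sum is mostly that of STM, KNAT1 and TFL1. With cycloheximide 2 of the 6 markers were called lower, STM (-0.78 ± 0.14) and KNAT1 (-0.76 ± 0.12), against 28.2% of all loci. Higher were 2, WUS (0.75 ± 0.10) and UFO (0.75 ± 0.13), against 26.5%. Of the floral organ markers 4 were tested. With cycloheximide 2 of them were called lower, against 28.2% of all loci, and 0 higher, against 26.5%. All 4 were lower with both compounds against untreated, where 33.1% of all loci were. With both compounds against cycloheximide alone TFL1 was called lower (-1.85 ± 0.15), 1 of 6, against 1.78% of all loci. Of the 4 floral organ markers tested 0 were called there, where 3.69% of all loci were. The part of these markers in the WRKY levels was not tested. Markers of other sources were at or near 0: the pollen pair summed to at most 0.171 FPKM, the root hair pair to at most 0.0201 with RHD6 at 0 in every library, and SAG12 was at 0. Correlation over loci was 0.953 to 0.980 (r) for pairs of libraries from the same group, and relative depth, from the step size of FPKM at the shortest loci, ran from 0.364 to 1.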

How the data were processed

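The 9 libraries were grouped by their labels alone. TopHat, Cufflinks and Cuffdiff on the TAIR10 build made the values, per the submitters' processing notes, and versions and scaling are not given in the sources used here. Deposited by the authors as FPKM, the values per locus and library were used as they stand, and 18 columns of deposited confidence bounds were left unused. A kit that does not mark strand is named beside a design text that says strand-specific, so overlapping opposite-strand genes are uncertain. Absolute depth is unknown, and precision rests on 3 libraries per group.

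Loci with status OK in all 9 libraries and mean FPKM of at least 1 (19569) were fitted together with limma 3.58.1 (R 4.3.3, intensity trend) on log2(FPKM + 1), which understates changes of low genes, with Benjamini-Hochberg adjustment over all tested loci. Same-numbered cycloheximide and dexamethasone + cycloheximide libraries deviated together (r of 0.353, 0.131 and 0.213), so the replicate number was also fitted as a block there. On simulated data 74% of log2 changes of 1 were called in that comparison, with 4 false calls among the loci left unchanged. For cycloheximide against untreated it was 80%, with 10 false calls. The simulated errors were independent between libraries and few loci, picked at random, were changed. That differs from the data, so these shares are no measure of power for the WRKY members. Members, gene lists and tests were chosen with earlier results of these data known. Per-library values are given for the 8 largest called rises and all falls, the 4 smallest p where fewer than 4 were called, the 4 highest untreated genes, and WRKY33, WRKY40, WRKY44, WRKY53 and WRKY70, and from each list up to 4 called genes, or the 2 with the smallest p. Some further members are shown with per-library values chosen after these were seen, as is ICS1. Promoters come from RefSeq TAIR10.1, whose 33958 gene and locus pairs gave 39.4% identical starts. Summaries ran in Python 3.11.15 (pandas 2.3.3) and plots in matplotlib 3.10.9, on numpy 2.4.6. Alternatives varied the constant, the minimum, the scaling, short loci, the libraries fitted and the block, and left out each library.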

Additional observations from a re-analysis of the deposited data

How the results depend on the processing

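With cycloheximide, called WRKY members numbered 28 to 34 higher in all alternatives, with every call above a log2 change of 1.5 kept wherever the gene was tested. Quantile normalization moved the median of all loci to -0.22 and the split of calls over all loci from 5193 higher and 5519 lower to 3819 and 7999 (against untreated with both compounds, to -0.25, and from 6035 and 6470 to 4529 and 8874). Called lower were then 3 members, WRKY21, WRKY65 and WRKY74, against 40.9% of all loci. With a mean of at least 5 FPKM the lower calls were 0 with cycloheximide and 1 with both compounds against untreated, because WRKY74 was not tested there. With dexamethasone, members called higher were 2 with quantile normalization (WRKY31 and WRKY40), 1 without loci under 300 bp (WRKY31), 2 with the replicate block over 9 libraries, 4 with the block over 6, and 0 to 6 when 1 library was left out. All loci called higher, 374, became 204 with a constant of 0.1, 151 without a minimum (lower 147), 14 with only 6 libraries (lower 27), 635 and 1024 with the block over 9 and 6 libraries, and 20 to 772 when 1 library was left out (lower 349, then 49 to 476). The extremes of 20 and 772 came without dexamethasone + cycloheximide replicate 3 and without cycloheximide replicate 3. Uncalled estimates changed sign in that comparison: with quantile normalization WRKY15 to -0.05 and WRKY32 to -0.01, and with 1 library left out WRKY4 from -0.01 to 0.10, WRKY15 from -0.12 to 0.21, WRKY23 from -0.05 to 0.21, WRKY28 from -0.23 to 1.05, WRKY32 from -0.04 to 0.05, WRKY33 from -0.02 to 0.53, WRKY54 from -0.21 to 0.14, WRKY65 from -0.27 to 0.08 and WRKY75 from -0.02 to 0.75. Replicate numbers were not taken to pair untreated with treated libraries (r of 0.0391, 0.0319 and 0.108 with cycloheximide, 0.058, -0.115 and 0.0622 with both). The block there gave 33 and 31 members higher with cycloheximide over 9 and 6 libraries, and 34 in each with both compounds. The alternatives for partner genes and other WRKY genes were added after seeing the data. The causes of these shifts were not tested.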

Other observations

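The annotation names 27 further WRKY genes. Of these 16 were tested, and with cycloheximide 9 were called higher, against 26.5% of all loci, and 1 lower, against 28.2%, with a median log2 change of 0.83. Of the 9 called higher, 8 had untreated means under 1 FPKM and passed the minimum only through treated libraries. Among the 7 with an untreated mean of at least 1 FPKM, 1 was called higher, WRKY27, against 23.6% of such loci, and 1 lower, against 29.8%. Those with the smallest p were WRKY66 (1.76 ± 0.16, SE, adjusted p = 4.58e-05), WRKY38 (3.18 ± 0.30, adjusted p = 5.71e-05), WRKY27 (1.91 ± 0.19, adjusted p = 8.34e-05) and WRKY58 (2.01 ± 0.32, adjusted p = 0.001). WRKY38, a group III gene known as a negative regulator of basal defence, had 0.412, 0.152 and 0.270 FPKM untreated and 6.58, 15.4 and 11.4 with cycloheximide, without overlap.

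With dexamethasone plus cycloheximide against cycloheximide alone 2 of these 16 genes were called higher, against 1.91% of all loci, and 1 lower, against 1.78%. Both called higher, WRKY59 and WRKY63, reached a mean of 1 FPKM only through the libraries with both compounds, so their count supports nothing. WRKY12, known for repressing secondary wall formation in pith and for a role in flowering time, had 13.3, 15.2 and 11.5 FPKM untreated, 8.25, 7.26 and 7.01 after cycloheximide and 3.67, 3.28 and 2.64 after both. The groups stepped down without overlap, and its log2 change of -1.03 ± 0.13 (limma, adjusted p = 0.0125) was called in 17 of 18 alternatives, the exception being the fit of only 6 libraries (adjusted p = 0.0557). WRKY59 had 0.699, 0.456 and 1.40 FPKM with cycloheximide and 3.80, 3.23 and 5.96 with both (log2 change 1.52 ± 0.24, adjusted p = 0.023), and lost its call without untreated replicate 2, cycloheximide replicate 1 or 2, or dexamethasone + cycloheximide replicate 3. WRKY63, linked to abscisic acid responses, had 1.02, 1.34 and 1.96 and 3.91, 3.34 and 3.61 FPKM (log2 change 0.94 ± 0.16, adjusted p = 0.0303) and was called in 8 of 17 alternatives. Its call was lost without untreated replicate 1 or 2, cycloheximide replicate 1 or 2, or any of the 3 libraries with both compounds.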
